A study of Mus musculus with 23 samples.

Results

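Neutrophils sorted from the lung and from peripheral blood (PB) of WT mice were compared by bulk RNA-Seq in the Piezo1 experiment of the study, which gave 2 lung libraries and 2 PB libraries from WT mice. Genes were kept if they reached a value of 1 in FPKM, sequenced fragments scaled to gene length and library size, in at least 2 of these 4 libraries, and 7143 of the 21878 genes listed did so. Of these, 5648 reached 1 FPKM in all 4 libraries, 228 in both lung libraries only and 975 in both PB libraries only. At the edge of the rule, the second-highest FPKM of the 5 genes just inside lay between 1.0003 and 1.004, and that of the 5 just outside between 0.9965 and 0.9996. The same contrast had been sequenced in a second set of WT libraries, 3 of lung and 3 of PB neutrophils from the study's comparison of tissues, called here the tissue comparison. These shared no library with the Piezo1 experiment and served to show which differences between lung and PB repeated.

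All 10 libraries came from mice labelled wt, for which the labels give no treatment, strain or age. The study's methods describe mice of both sexes, lungs that were perfused, and neutrophils purified by negative selection and then sorted as CD45+CD11b+Ly6G+ cells. They describe enzymatic digestion of lung for flow cytometry and its omission for a functional assay, and do not say which of these held for RNA-Seq. If the lungs were digested, tissue and digestion cannot be told apart. In the Piezo1 experiment the WT mice were the controls of mice that lack Piezo1, a mechanically gated cation channel, in Vav1-iCre-expressing blood cells, and whether they carried the floxed Piezo1 allele or the Cre is not given in the labels. Each library is a pool of sorted cells, in which fewer cells of a state and less RNA per cell cannot be told apart.

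Neutrophils are short-lived granulocytes that are released from the bone marrow into the blood and lodge in large numbers in the narrow capillaries of the lung. They sense microbes and tissue damage through receptors that release the transcription factor NF-κB from its IκB inhibitors, upon which chemokines, cytokines and the inhibitors themselves are transcribed. Cxcl1, Cxcl2 and Cxcl3 encode ligands of CXCR2, the receptor by which neutrophils are drawn to a site, and Vegfa and Thbs1 encode a promoter and an inhibitor of blood vessel growth. Hilpda encodes a lipid droplet protein induced by low oxygen.

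The promoters of 5 genes that were higher in lung in both experiments are shown because their products stand for the CXC chemokines and the NF-κB inhibitors described here. Each sequence is the 250 bases before a RefSeq transcription start of GRCm38.p6 in the direction of transcription, taken at the outermost start listed for the gene so that it holds none of its transcripts. Capitals mark matches on either strand to GGANTTTCC, a form of the κB site, to TGANTCA, the AP-1 site, and to ACGTG, the core of the hypoxia response element. Matches that overlap share their capitals. The windows are chr5:90890995-90891244, chr5:90903649-90903898 and chr5:90785851-90786100 on the plus strand for the chemokines, and chr12:55492648-55492897 and chr10:19015411-19015660 on the minus strand for Nfkbia, the inhibitor IκBα, and Tnfaip3, the ubiquitin-editing inhibitor A20.
Cxcl1: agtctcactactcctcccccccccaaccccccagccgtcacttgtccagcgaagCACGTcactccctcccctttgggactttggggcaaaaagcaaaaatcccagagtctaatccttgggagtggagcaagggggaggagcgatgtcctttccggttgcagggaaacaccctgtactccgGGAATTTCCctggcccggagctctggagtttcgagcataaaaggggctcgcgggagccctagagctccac
Cxcl2: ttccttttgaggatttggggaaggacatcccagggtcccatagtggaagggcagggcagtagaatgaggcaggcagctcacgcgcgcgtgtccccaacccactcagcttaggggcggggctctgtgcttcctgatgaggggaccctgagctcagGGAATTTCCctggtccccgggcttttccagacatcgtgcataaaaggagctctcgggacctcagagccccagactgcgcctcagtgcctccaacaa
Cxcl3: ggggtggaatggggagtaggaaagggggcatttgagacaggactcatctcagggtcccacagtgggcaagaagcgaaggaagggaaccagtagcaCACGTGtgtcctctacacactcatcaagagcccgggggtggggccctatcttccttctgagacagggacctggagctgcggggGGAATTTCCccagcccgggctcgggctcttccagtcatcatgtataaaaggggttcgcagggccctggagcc
Nfkbia: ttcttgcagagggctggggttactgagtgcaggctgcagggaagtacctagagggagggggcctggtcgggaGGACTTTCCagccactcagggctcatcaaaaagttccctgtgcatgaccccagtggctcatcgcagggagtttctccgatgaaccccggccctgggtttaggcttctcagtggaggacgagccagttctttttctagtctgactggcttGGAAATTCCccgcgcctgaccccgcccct
Tnfaip3: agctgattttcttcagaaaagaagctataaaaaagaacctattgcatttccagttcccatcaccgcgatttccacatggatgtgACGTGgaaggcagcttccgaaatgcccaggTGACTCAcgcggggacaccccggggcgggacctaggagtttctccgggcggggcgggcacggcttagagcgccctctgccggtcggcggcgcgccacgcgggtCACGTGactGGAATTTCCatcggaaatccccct

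The κB letters began 70 bases before the start in Cxcl1, 96 in Cxcl2, 72 in Cxcl3 and 24 in Tnfaip3, and at 178 and 29 bases in Nfkbia. Tnfaip3 was the 1 promoter of the 5 with an AP-1 match, at 136 bases, and ACGTG matches stood in Cxcl1, Cxcl3 and Tnfaip3. Across all 32851 promoters of this length, 1.065% held the κB letters, and among the promoters of genes tested 1.147% did. They were found in 3.846% of the 468 promoters of genes higher in lung in both experiments (357 of 434 genes had a promoter) and in 1.107% of the 1084 promoters of genes higher in PB in both (845 of 1014 genes). For TGANTCA the shares were 6.749% of all promoters, 4.425% of promoters of genes tested, 9.188% of those higher in lung and 3.598% of those higher in PB. For ACGTG they were 16.57%, 23.41%, 28.42% and 21.13% in the same order. Such matches describe letters in these windows and were not tested as binding sites.

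The 4 libraries held 13183370 to 15034817 reads assigned to genes, recovered from the deposited FPKM, against 16501572 to 18590384 in the tissue comparison. A count of 0 allows up to 3 reads, which is 0.2 to 0.228 RPM (reads scaled to library size) in these 4 libraries and covers counting error only. At least 1 FPKM was reached by 6088 and 6103 genes in the lung libraries and by 7001 and 7004 in the PB libraries, and the 10 most abundant genes took 31.5% to 33.5% of all FPKM, against 19.8% to 23.4% in the tissue comparison. Replicates correlated across the genes tested with r = 0.998 in lung and in PB. Their counts differed by more than sampling noise, with a chi-square of 1.92 and 1.85 per degree of freedom, and no pair was identical. A PB library of the tissue comparison, replicate 3, stood apart from its other two, at 23.2 and 38.8 per degree of freedom against 4.57 between those. The study describes the replicates of the tissue comparison as mice, while the labels do not say whether those of the Piezo1 experiment came from separate mice, so their p-values may measure only a technical spread between libraries.

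The sorted cells carried neutrophil markers in both tissues. All 9 genes of the neutrophil list were tested, with a summed level of 91102 and 94519 FPKM in lung and 135719 and 139423 in PB. The alarmin subunits S100a8 and S100a9 led it, S100a8 with 50012 and 53671 FPKM in lung and 78314 and 81892 in PB. Ly6g, which encodes the antigen used in the sort, had 61.4 and 57.8 FPKM in lung and 93.6 and 101 in PB, a log2 difference of -0.70 that was not called. The defining markers of B cells, NK cells, basophils and alveolar macrophages summed to at most 0.645 FPKM in every one of the 4 libraries. Among the T cell, platelet and endothelial lists, 0 genes were called, with sums of at most 4.67, 3.06 and 2.74 FPKM. The platelet gene Ppbp, at 1.92 and 1.04 FPKM in lung and 0.420 and 0.0615 in PB, was just under the fold threshold at 0.99 and was called higher in lung after rescaling (1.28), and Pf4 had 6 and 8 reads in lung and 0 in PB. Other platelet genes went the other way. Treml1 had 0 reads in lung and 5 and 8 in PB, Gp1ba 0 in lung and 6 and 5 in PB, and Itga2b and Gp9 had higher mean FPKM in PB. No gene was called in the monocyte and macrophage, eosinophil, and fibroblast and smooth muscle lists either, whose sums were 421 to 555, 14.6 to 29.4 and 23.5 to 43.6 FPKM. Ccr2 and C1qa were at 0 in all 4 libraries, and the first of these sums came from Ly6c2, Cd68, Csf1r and Adgre1.

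**Figure D1:**
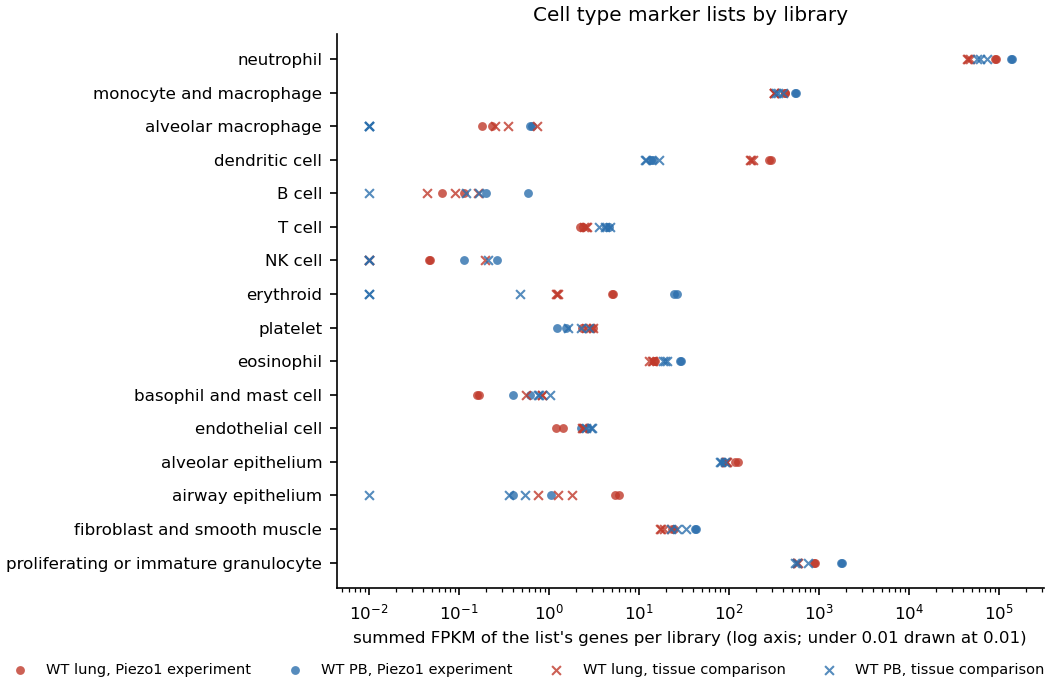
Summed FPKM of the genes of 16 cell type marker lists, on a log axis, in each WT library of the Piezo1 experiment (circles) and of the tissue comparison (crosses), lung in red and PB in blue. The neutrophil list holds 91102 and 94519 FPKM in lung and 135719 and 139423 in PB, while lung lies above PB in the dendritic cell list, 283 and 294 FPKM against 13.6 and 14.3 in the Piezo1 experiment.

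More genes were higher in PB than in lung neutrophils. Differentially expressed genes (DEGs) were those with an adjusted p below 0.05 from limma on log2(FPKM + 1), with Benjamini-Hochberg adjustment over the 7143 genes, and an absolute log2 difference above 1. By this rule 536 genes (7.5%) were higher in lung and 1893 (26.5%) were higher in PB. The median log2 difference of lung minus PB over all genes tested was -0.62, and after each library was divided by its median ratio to the others, which brings this median to -0.01, 940 genes lay higher in lung and 632 in PB. The share of DEGs that were higher in lung was thus 22.1% as deposited and 59.8% rescaled, and counts of genes higher in PB are relative to that choice. edgeR with TMM on the recovered reads gave 1138 and 1187.

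The largest differences lay on the lung side. Among DEGs the median log2 difference was 1.73 for genes higher in lung and -1.35 for genes higher in PB, and 39 genes were higher in lung by more than 4 log2 units against 2 higher in PB by as much. Both lung libraries lay apart from both PB libraries at every one of these DEGs, but the same held for 94.5% of all genes tested. A further 644 and 3287 genes passed the adjusted p alone in the direction of lung and of PB. With 2 libraries a tissue, limma takes much of each standard error from the other genes, and an exact permutation of the 4 libraries cannot reach 0.05. Leaving out each library in turn gave 531 to 545 genes higher in lung and 1898 to 1926 higher in PB, but each such fit has 1 library in a tissue and takes the spread from the other tissue and from other genes, so that this range says little of stability.

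Hilpda (mm10, NCBI gene 69573, chromosome 6, 29272488 to 29275449) had the largest difference, with 553 and 564 FPKM in lung and 1.03 and 0.903 in PB. Its log2 difference of 8.15 ± 0.050 (SE, n = 2 and 2, limma adjusted p = 8.57e-11) exceeded the 6.86 of the tissue comparison, where it had 176, 158 and 166 FPKM in lung and 0.460, 0.295 and 0.584 in PB. The lung libraries of either experiment lay far above every PB library. PB was near or below 1 FPKM in both, so the sizes of these log2 differences, and the gap between them, depend on the 1 FPKM added before the logarithm. Cxcl3 (NCBI gene 330122, chromosome 5, 90786101 to 90788093) had 649 and 669 FPKM in lung and 3.35 and 3.66 in PB, a log2 difference of 7.19 ± 0.047 (limma adjusted p = 9.23e-11). Cxcl1 (NCBI gene 14825, chromosome 5, 90891245 to 90893121) had 170.1 and 172 FPKM in lung and 0.477 and 0.349 in PB, a log2 difference of 6.93 against 6.40 in the tissue comparison. In both chemokine genes the PB level was near or below 4 FPKM and the replicates of each tissue lay close together. Thbs1 (NCBI gene 21825, chromosome 2, 118111876 to 118127133), which encodes the secreted glycoprotein thrombospondin-1, had 781 and 775 FPKM in lung and 5.93 and 5.51 in PB. Its levels were higher in both tissues of the tissue comparison (2871, 2923 and 2924 and 21.6, 24.4 and 18.3 FPKM), yet the log2 differences were alike, 6.86 and 7.03.

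The alarmin cytokine Il1a had 117 and 121 FPKM in lung and 0.107 and 0.0940 in PB, a log2 difference of 6.77 ± 0.063. Il23a, which encodes the p19 subunit of IL-23, had 66.7 and 69.1 FPKM in lung and 0 and 0.0980 in PB, where PB held 2 reads in all against 2762 in lung, a ratio of 1301 in RPM with an exact 95% counting interval of 359.9 to 10750. Both cytokine genes were thus close to undetected in PB and well measured in lung. Ifrd1, a transcriptional coregulator, had 799.9 and 784 FPKM in lung and 10.2 and 9.28 in PB and a log2 difference of 6.21. Cdkn1a, the cell cycle inhibitor p21, had 387 and 389 FPKM in lung and 5.74 and 6.25 in PB and a log2 difference of 5.80. Snai1, a zinc finger repressor, and Vps37b, a subunit of the ESCRT-I sorting complex, had 291 and 289.8 FPKM and 706 and 708 FPKM in the lung libraries, with log2 differences of 5.88 and 5.63. The MHC class II genes H2-Aa and H2-Ab1, also markers of dendritic cells, completed the 12 largest differences among DEGs with a mean of at least 5 FPKM in lung, at 5.96 and 5.77. All 12 were higher in lung in the tissue comparison too, by 4.51 to 8.23 log2 units.

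**Figure D2:**
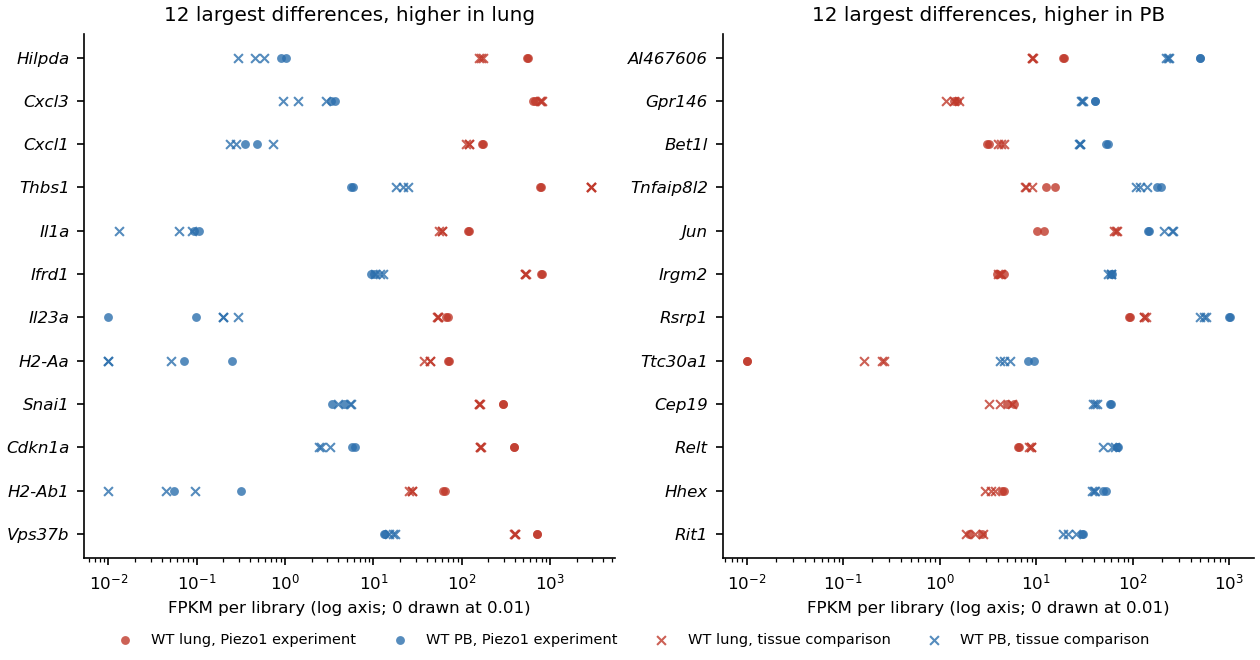
FPKM of the 12 largest differences in each direction, 1 point per WT library on a log axis with 0 drawn at 0.01, circles for the Piezo1 experiment and crosses for the tissue comparison, lung in red and PB in blue. Genes were chosen among DEGs whose lung and PB libraries did not overlap in the Piezo1 experiment, as held for 94.5% of all genes tested there. Lung and PB points are apart at all 24 genes in the tissue comparison too. Jun shows the lung points of the Piezo1 experiment (12.03 and 10.1 FPKM) left of those of the tissue comparison.

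The largest difference in the direction of PB was at AI467606 (NCBI gene 101602, chromosome 7, 127090780 to 127094049), with 19.2 and 19.0 FPKM in lung and 496 and 496 in PB. Its log2 difference was -4.63 ± 0.030 (limma adjusted p = 9.23e-11), against -4.51 in the tissue comparison. Gpr146, an orphan G protein-coupled receptor, had 1.51 and 1.42 FPKM in lung and 40.5 and 40.4 in PB, a log2 difference of -4.07 against -3.70. Every PB library lay above every lung library at both genes. Tnfaip8l2, an inhibitor of innate immune signalling, had 12.7 and 15.6 FPKM in lung and 179 and 198 in PB and log2 differences of -3.65 and -3.74 in the 2 experiments. Irgm2, an interferon-inducible GTPase, had 3.90 and 4.66 FPKM in lung and 60.2 and 59.1 in PB and log2 differences of -3.53 and -3.50. Hhex, a homeobox transcription factor, had 4.44 and 4.62 FPKM in lung and 52.2 and 49.1 in PB, with -3.22 and -3.20. At these 3 genes the experiments gave nearly the same difference.

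Bet1l, a SNARE protein of the Golgi, had 3.07 and 3.26 FPKM in lung and 53.0 and 55.4 in PB, a log2 difference of -3.73 against -2.45 in the tissue comparison. Rsrp1, which encodes an arginine- and serine-rich protein, had 92.5 and 92.1 FPKM in lung and 1005 and 982 in PB, at -3.41 against -2.003. Jun, a subunit of AP-1, had 12.03 and 10.1 FPKM in lung and 146 and 144 in PB, at -3.60 against -1.85. These 3 genes, the AP-1 subunit included, were higher in PB in both experiments and by more in the Piezo1 experiment. Ttc30a1, a gene of ciliary transport whose reads may be shared with a close paralog, had 0 reads in both lung libraries and 707 in the PB libraries, so that PB was at least 250.1-fold higher with lung set at 3 reads over the group, the limit for a count of 0. The centrosomal gene Cep19, the TNF receptor family member Relt and the small GTPase Rit1 had log2 differences of -3.24, -3.23 and -3.22. These were the 12 largest with a mean of at least 5 FPKM in PB, and rescaling kept each of them higher in PB, AI467606 at -3.90 and Rit1 at -2.59.

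Of 13 CXC chemokines listed, 5 were tested, and 2 of these, Cxcl1 and Cxcl16, reached 1 FPKM in lung alone, so that the filter fixed their direction. The other 3, Cxcl2, Cxcl3 and Cxcl10, were higher in lung as deposited, rescaled and in the tissue comparison. Over all 5, the 2 of fixed direction included, the median log2 difference was 3.89, beside -0.62 for all genes. Cxcl2 was the most abundant of them with 13892 and 13832 FPKM in lung and 925 and 944 in PB, a log2 difference of 3.89 ± 0.015 (limma adjusted p = 1.51e-11) against 3.85 in the tissue comparison. The interferon-inducible Cxcl10 had 26.3 and 26.8 FPKM in lung and 9.44 and 11.3 in PB and a log2 difference of 1.28. Cxcl16, a transmembrane chemokine, had 3.87 and 3.14 FPKM in lung and no reads in PB, at least 82.9-fold higher in lung. Of 5 CC chemokines tested 2 were higher in lung. Ccl3, a chemoattractant of monocytes and neutrophils, had 484 and 497 FPKM in lung and 85.4 and 101 in PB, a log2 difference of 2.39 that was smaller than the 4.05 of the tissue comparison. Ccl4 had 194 and 195 FPKM in lung and 56.6 and 66.9 in PB, with 1.64 against 2.40. Ccl2, Ccl6 and Ccl9 were not called, at -0.72, -0.46 and -0.12, and Ccl6 turned to 0.28 when rescaled.

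Of 16 chemoattractant receptors tested, 4 were higher in lung and 5 higher in PB, or 7 and 1 after rescaling. Cxcr2, the receptor of Cxcl1, Cxcl2 and Cxcl3, had 346 and 339.8 FPKM in lung and 1417 and 1424 in PB, a log2 difference of -2.05 ± 0.019 (limma adjusted p = 4.3e-10) against -1.95 in the tissue comparison, and remained higher in PB after rescaling at -1.30. Both PB libraries held about as much as each other and lay above both lung libraries. Cxcr1, Cxcr3, the C5a receptor C5ar2 and the leukotriene B4 receptor Ltb4r1 were also higher in PB as deposited, at -1.004, -1.57, -1.5 and -1.12. Ccrl2, a receptor that binds chemerin without signalling, had 1695 and 1677 FPKM in lung and 92.1 and 87.5 in PB, a log2 difference of 4.22 against 3.57. Ptafr, the receptor of platelet-activating factor, was higher in lung by 1.33. P2ry10 had no reads in PB and 178 in lung, and was at least 55.9-fold higher in lung. Cxcr4, whose product retains neutrophils in the marrow, was not called, at 0.43.

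Inflammatory cytokines were called in both directions, with 9 of 16 tested higher in lung and 2 higher in PB, and 12 and 1 after rescaling. Of the 16, 6 passed the filter through lung alone, and of the other 10 genes 4 were higher in lung and 2 higher in PB. Il1b, the most abundant, had 9764 and 9776 FPKM in lung and 3934 and 3889 in PB, a log2 difference of 1.32 ± 0.012 (limma adjusted p = 3.94e-10) against 1.31 in the tissue comparison. Tnf had 102 and 107 FPKM in lung and 13.5 and 16.1 in PB, and Osm, a cytokine of the IL-6 family, had 1254 and 1263 FPKM in lung and 382 and 389 in PB. Il1rn, which encodes the antagonist of the IL-1 receptor, had 1082 and 1063 FPKM in lung and 297 and 285 in PB. All 4 were higher in lung, by 1.32 to 2.74 log2 units, and all 4 were DEGs in the tissue comparison as well. Csf3, the granulocyte growth factor G-CSF, had 19.9 and 18.5 FPKM in lung, or 1574 reads, and 1 read in the PB libraries, a ratio of 1483 in RPM with an exact 95% counting interval of 266 to 58614. Il12a had 10.5 and 11.6 FPKM in lung and 0.824 and 0.766 in PB and a log2 difference of 2.74. Il10 had 4.27 and 3.41 FPKM in lung and none in PB, at least 47.1-fold higher, and was not tested in the tissue comparison. The TNF ligands Tnfsf14 and Tnfsf13b were higher in PB as deposited, at -1.90 and -1.05. Il6 had 0 reads in all 4 libraries, which allows up to 0.228 RPM, and was not detectable at this depth. It had 0.307, 0.255 and 0.372 FPKM in lung and 0 in PB of the tissue comparison.

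Of 24 cytokine and growth factor receptors tested, 4 were higher in lung and 3 higher in PB (6 and 1 rescaled), where 7.5% and 26.5% of all genes were. Il1r2, the decoy receptor of IL-1, had 3223 and 3263 FPKM in lung and 297 and 299.6 in PB, a log2 difference of 3.44 against 3.22. Il10ra, Tnfrsf1b and Ifnar1 were higher in lung by 2.11, 1.98 and 1.19. Il17ra had 68.2 and 65.8 FPKM in lung and 227 and 228 in PB, a log2 difference of -1.75 that repeated at -1.78, and Il6ra and Notch1 were at -1.51 and -1.27. Csf3r, the receptor of G-CSF, was not called, at -0.40.

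Of 24 growth factors and regulators of angiogenesis listed, 10 were tested. Of these, 5 were higher in lung and 0 higher in PB, as deposited and rescaled, where 7.5% and 26.5% of all genes were as deposited. Areg and Hbegf passed the filter through lung alone and Tgfb1 through PB alone. Of the other 7 genes 4 were higher in lung and 0 higher in PB. In the tissue comparison 6 of the 10 were higher in lung and 2 higher in PB, Mmp9 at -1.04 and Tgfb1 at -1.03, which were at -0.89 and -0.46 in the Piezo1 experiment and not called. Vegfa (NCBI gene 22339, chromosome 17, 46016993 to 46032377) had 92.3 and 91.0 FPKM in lung and 4.09 and 4.93 in PB, a log2 difference of 4.08 ± 0.077 (limma adjusted p = 1.12e-08) against 3.58 in the tissue comparison, where it had 149, 153 and 150.01 FPKM in lung and 13.1, 13.5 and 9.03 in PB. Lung and PB did not overlap in either experiment. Plaur, the urokinase receptor, had 2167 and 2173 FPKM in lung and 351 and 356 in PB and a log2 difference of 2.62. Sema4d was higher in lung by 1.37, and Areg, a ligand of the EGF receptor, had 3.26 and 4.82 FPKM in lung and no reads in PB, at least 46.2-fold higher. Mmp9, a gelatinase stored in granules, had 966 and 965 FPKM in lung and 1795 and 1794 in PB. In prostaglandin and leukotriene synthesis, Ptgs2, the inducible cyclooxygenase, had 648 and 642 FPKM in lung and 71.1 and 72.7 in PB and was higher in lung by 3.15 (2.73 in the tissue comparison). Ptgs1, the constitutive enzyme, was low in both tissues (0.616 and 0.482 FPKM in lung and 4.17 and 3.79 in PB) and higher in PB, as were Pla2g4a and Ptges2 as deposited, while the other 5 of 9 tested were not called. After rescaling 1 of the 9 was higher in each direction.

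Almost the whole NF-κB list was higher in lung. Of 20 subunits, inhibitors and targets tested, 19 were higher in lung and 0 higher in PB, as deposited, rescaled and in the tissue comparison, and the same 19 genes were called in both experiments. Of the 20, Traf1 and Cd83 passed the filter through lung alone, and of the other 18 genes 17 were higher in lung. The inhibitors Nfkbie, Nfkbib and Nfkbia had log2 differences of 4.94, 3.37 and 2.64, Nfkbia with 3813 and 3958 FPKM in lung and 622 and 621 in PB, and the inhibitor Tnfaip3 had 385 and 384 FPKM in lung and 15.1 and 14.0 in PB, at 4.63. Each of these feedback inhibitors was thus higher in lung. Among the subunits, Rel, Relb and Nfkb2 were higher by 2.44, 2.26 and 2.02, Rela by 1.23, and Nfkb1, the 1 gene not called, was at 0.27. The targets Traf1, Icam1 and Sod2 were at 4.86, 4.18 and 3.78, Icam1 with 213 and 213 FPKM in lung and 11.05 and 10.5 in PB. The promoters printed above for Nfkbia and Tnfaip3 belong to this group, of which 5 of 16 genes with a promoter held the κB letters. This is 31.25% of these genes, beside 1.407% of all genes tested that had a promoter. The list was chosen for its known link to NF-κB, so this share is a description only.

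Genes of pattern recognition lay on both sides, with 5 of 20 tested higher in lung and 3 higher in PB (7 and 0 rescaled). Cd14, the coreceptor for lipopolysaccharide, had 5946 and 5976 FPKM in lung and 240.0 and 251 in PB, a log2 difference of 4.597 ± 0.024 (limma adjusted p = 4.82e-11) against 4.599. Tlr2, Trem1, Clec4e and Nlrp3 were higher in lung by 2.41, 2.33, 1.95 and 1.83. Tlr4, the signalling receptor of lipopolysaccharide, and the adaptor Myd88 were higher in PB as deposited, at -1.39 and -1.38. Of 9 checkpoint and costimulatory ligands tested, 3 were higher in lung and 2 higher in PB (3 and 1 rescaled). Cd274, which encodes PD-L1, had 149.8 and 143 FPKM in lung and 19.4 and 19.3 in PB, a log2 difference of 2.85 against 2.93, and Cd80 had 92.8 and 88.7 FPKM in lung and 23.3 and 24.7 in PB, at 1.88 against 2.89. Cd200r1, an inhibitory receptor, had 2.06 and 3.20 FPKM in lung and 31.8 and 29.6 in PB, at -3.14 against -1.96. Of 13 adhesion molecules, Icam1 and the tetraspanin Cd9 were higher in lung, as deposited and rescaled, and the other 11 were not called as deposited. Of 11 NADPH oxidase and Fc receptor genes, only Fcgr3 was called, higher in PB at -1.22, and after rescaling 1 gene was higher in lung and 0 higher in PB.

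Immediate early genes split, with 9 of 26 tested higher in lung and 5 higher in PB, or 13 and 4 after rescaling. Fosl1, Nr4a2, Nr4a3 and Maff passed the filter through lung alone, and the other 22 genes gave 5 in each direction. The phosphatases Dusp2 and Dusp5 had 481 and 455 FPKM in lung and 16.7 and 15.8 in PB and 594 and 565 FPKM in lung and 28.9 and 31.3 in PB, respectively, and were higher in lung by 4.76 and 4.22. The orphan nuclear receptors Nr4a1, Nr4a2 and Nr4a3 were higher in lung by 3.95, 2.87 and 3.20, and the AP-1 subunits Fosl1 and Fosb by 4.03 and 2.27. Beside Jun, the genes higher in PB were Rhob, Klf6, Klf2 and Dusp6, at -2.62, -2.23, -2.003 and -1.37. Fos, Junb and Dusp1, the most abundant of the list, were not called, at -0.60, 0.03 and 0.17. Heat shock genes and co-chaperones had 3 of 12 tested higher in lung and 2 higher in PB (7 and 0 rescaled), with Hspa5 and Hspa9, the chaperones of the endoplasmic reticulum and the mitochondrion, at 1.47 and 1.46 and Hspa1a at -1.28. Both lists are known to respond to cell handling, and its part in these differences was not tested.

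Of 8 glucocorticoid-induced genes, Il1r2, Ddit4 and Per1 were higher in lung and Tsc22d3, Sgk1 and Fkbp5 higher in PB, the former led by Il1r2 and the latter by Tsc22d3 with 137 and 133 FPKM in lung and 898 and 867 in PB. After rescaling 4 were higher in lung and 1 in PB. Of 7 clock genes, Bhlhe40 and Per1 were higher in lung, at 3.70 and 1.26 (3 after rescaling). Of 8 SOCS, Cish and Pim genes, Pim3, Cish and Pim2 were higher in lung (4 after rescaling), and of 30 glycolysis and hypoxia genes 5 were higher in lung and 5 in PB (8 and 1 rescaled). Those in lung were Hilpda, the lactate exporter Slc16a3 with 919 and 913 FPKM in lung and 182 and 175 in PB, the oxygen-regulated subunit Hif1a with 93.3 and 93.1 FPKM in lung and 30.6 and 29.5 in PB, Ddit4 and the glucose transporter Slc2a1, while glycolytic enzymes such as Gapdh, Pkm and Ldha were not called.

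Of 30 interferon-stimulated genes tested, 15 were higher in PB, 1 was higher in lung and 14 were not called, where 26.5% of all genes were higher in PB. Their median log2 difference was -1.02 beside -0.62 for all genes, and 12 of the 15 were DEGs in the same direction in the tissue comparison. After rescaling 7 were higher in PB and 3 in lung, with a median of -0.33 beside -0.01. Slfn1, a Schlafen family member, had 88.5 and 91.2 FPKM in lung and 534 and 535 in PB, a log2 difference of -2.56 ± 0.026 (limma adjusted p = 6.11e-10) against -2.10. Usp18, which removes the ubiquitin-like ISG15 from proteins, had 8.83 and 8.90 FPKM in lung and 48.0 and 48.9 in PB, at -2.33, and Cmpk2 had 10.04 and 11.01 FPKM in lung and 51.4 and 48.5 in PB, at -2.14. Lung and PB libraries did not overlap at these 3 genes. Irf1 and Ifit3b, which has near-identical relatives, were at -2.02 and -2.14. Isg15 was the 1 member higher in lung, with 148 and 171 FPKM in lung and 34.6 and 35.6 in PB and log2 differences of 2.15 and 1.35 in the 2 experiments.

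Of 13 granulocyte transcription factors tested, 7 were higher in PB and 3 higher in lung (4 and 3 rescaled), and all 7 were higher in PB in the tissue comparison as well. Cebpd had 39.0 and 36.0 FPKM in lung and 296 and 294 in PB, a log2 difference of -2.94 ± 0.042 (limma adjusted p = 3.05e-09) against -2.997. Rara, the retinoic acid receptor α, had 9.07 and 9.16 FPKM in lung and 48.1 and 48.0 in PB, at -2.28, and Cebpa and Cebpe, factors of granulocyte development, were at -1.83 and -1.58. Cebpb, a factor of emergency granulopoiesis, went the other way with 3908 and 3755 FPKM in lung and 1146 and 1127 in PB, at 1.75 against 1.70. Members of the C/EBP family were thus called in both directions. Runx3 and Mxd1 were higher in lung by 1.48 and 1.39. In the BCL2 family, which controls apoptosis, 6 of 13 tested were higher in lung and 5 higher in PB (6 and 2 rescaled). The anti-apoptotic paralogs Bcl2a1a, Bcl2a1b and Bcl2a1d, whose reads may be split among them, were higher in lung by 2.49, 3.74 and 3.35, and so was the pro-apoptotic Bcl2l11 by 2.64. Bid, Bbc3 and Bad, which promote apoptosis, were higher in PB at -2.42, -1.91 and -1.40, and anti-apoptotic Mcl1 at -1.02.

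Granule protein genes differed little from the median of all genes. Of 20 tested, 5 were higher in PB and 0 higher in lung, with a median log2 difference of -0.75 beside -0.62 for all genes, and after rescaling 0 were higher in PB and 1 in lung. Lyz2, lysozyme, had 2884 and 2856 FPKM in lung and 5836 and 5865 in PB, at -1.03. Camp, the cathelicidin precursor, had 91.0 and 96.0 FPKM in lung and 246 and 271 in PB, at -1.45, and Ltf, lactoferrin, was at -1.10. None of the 5 was called in the tissue comparison, where Camp was at -0.30 and Ltf at -0.18, while Lyz2, at -0.92, lay just under the fold threshold. Cytosolic ribosomal protein genes had 9 of 79 tested higher in PB and 0 in lung (0 and 1 rescaled), with a median of -0.69, and nuclear-encoded respiratory chain genes had 15 of 75 higher in PB and 0 in lung (1 and 4 rescaled), with a median of -0.77. Of the list of proliferating or immature granulocyte markers 3 of 5 tested were higher in PB, Ltf, Camp and Cebpe, where 26.5% of all genes were. After rescaling these 3 were at -0.36, -0.72 and -0.91 and not called, while edgeR with TMM still called Cebpe higher in PB. Mki67 and Top2a stayed at or under 0.495 FPKM in the 4 libraries. In the tissue comparison Mki67 was a DEG higher in lung, with 1.43, 1.63 and 1.31 FPKM in lung and 0.0503, 0.0537 and 0.0532 in PB. Stretch and volume channels had 0 of 6 tested called as deposited or rescaled, and Trpv2, the most abundant, had 53.0 and 51.0 FPKM in lung and 64.1 and 63.6 in PB. Piezo1 itself was below the filter in all 4 libraries (0.0577 and 0.0571 FPKM in lung and 0.0407 and 0.0357 in PB).

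**Figure D3:**
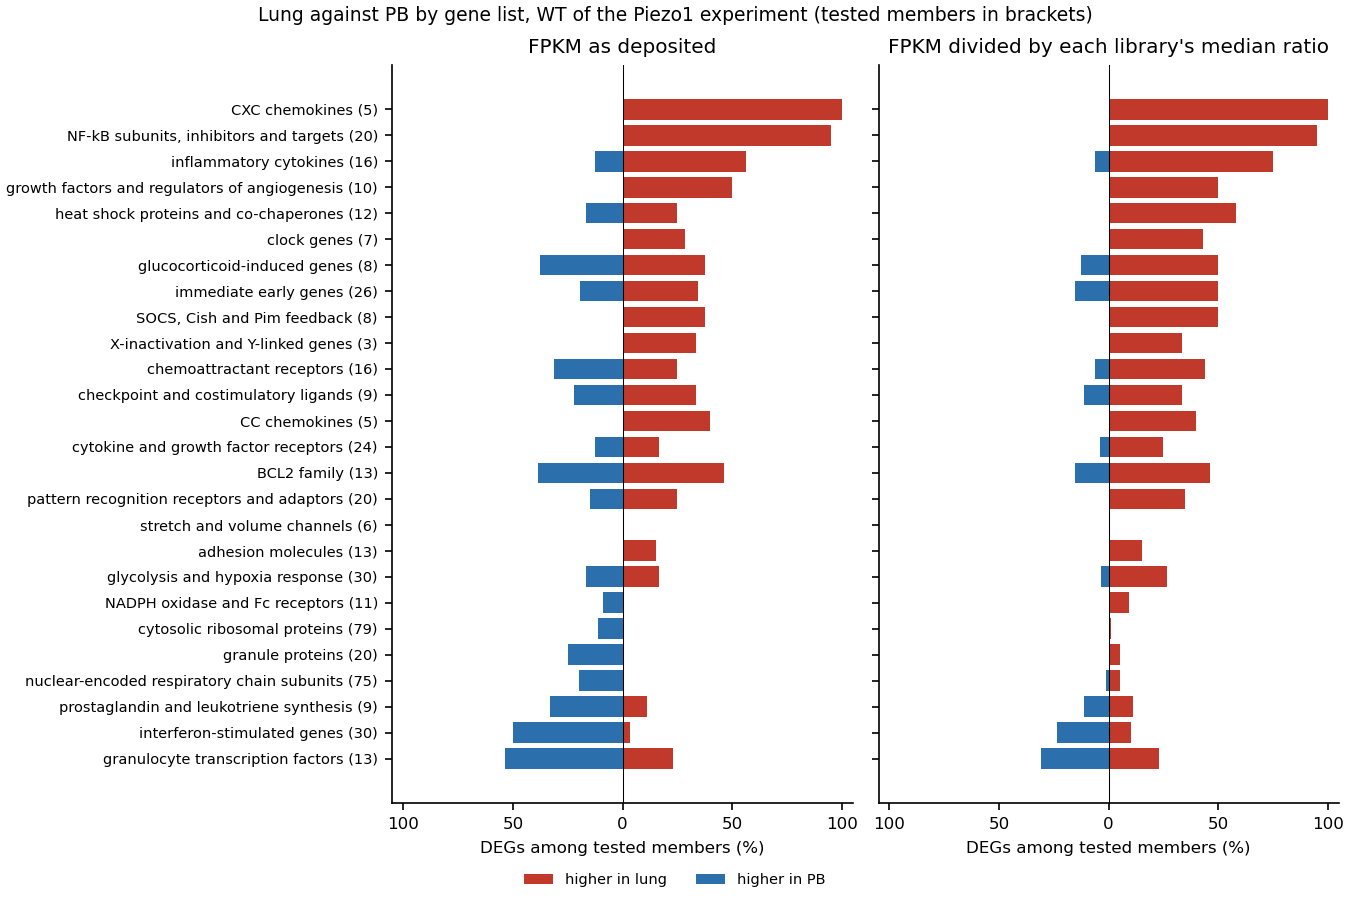
Percent of the tested members of 26 gene lists that were DEGs higher in lung (red, right) or higher in PB (blue, left) in the WT libraries of the Piezo1 experiment, with FPKM as deposited (left panel) and divided by each library's median ratio (right panel), ordered by the median log2 difference of the list. CXC chemokines and the NF-κB list reach 100% and 95% in red in both panels, while the blue bars of ribosomal and granule protein genes vanish after rescaling.

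Most differences that passed in the Piezo1 experiment repeated in the second set of WT mice. Of 6719 genes tested in both experiments, 511 were DEGs higher in lung in the Piezo1 experiment and 546 in the tissue comparison, where 587 of 7577 genes tested (7.75%) were called. They shared 434 genes, 84.9% of the first list and 79.5% of the second. On the side of PB the lists held 1752 and 1354 genes, the latter from 1476 called in all (19.5%), and shared 1014, which is 57.9% and 74.9%. In neither direction was a gene called with opposite signs, while edgeR with TMM gave 1 such gene in each direction. After rescaling 724 genes were shared higher in lung (80.8% and 83.3%) and 273 higher in PB (49.1% and 65.2%), and the difference between the shares of the lung and PB sides was not tested.

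Across the 6719 genes, the log2 differences of the experiments correlated with Pearson's r = 0.899 and Spearman's rho = 0.800, as a description across genes that are not independent replicates. The sign was the same at 90.3% of genes, and 79.1% lay on the same side of their experiment's median. The median absolute difference between experiments was 0.27 log2 units, 75.4% of genes lay within 0.5 and 95.8% within 1. Among DEGs of the Piezo1 experiment tested in both, 98.8% of those higher in lung and 99.3% of those higher in PB had the same sign in the tissue comparison.

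**Figure D4:**
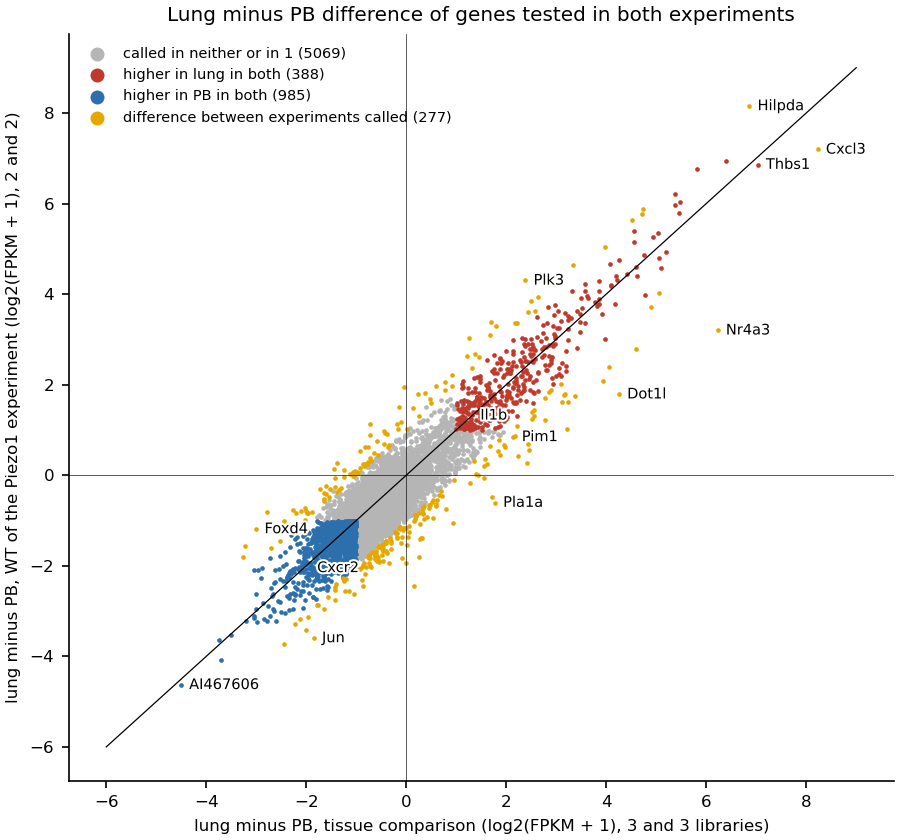
Log2 difference of lung minus PB in the WT libraries of the Piezo1 experiment (vertical, 2 and 2 libraries) against the tissue comparison (horizontal, 3 and 3 libraries), 1 point for each of 6719 genes tested in both, with the line of equal differences. Red and blue points were DEGs in both experiments, and the 277 orange points, whose difference between experiments was called, lie off the line, Nr4a3, Dot1l and Pla1a below it and Plk3 above.

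Genes called in only 1 experiment mostly had the same direction in the other. Of 77 genes higher in lung in the Piezo1 experiment alone, 71 had the same sign in the tissue comparison, with a median of 0.72 there, and 18 differed by the test of the difference between experiments. Of 738 genes higher in PB in the Piezo1 experiment alone, 726 had the same sign, with a median of -0.74, and 78 differed by that test. Of 112 genes higher in lung in the tissue comparison alone, 108 had the same sign in the Piezo1 experiment, and 22 differed. Of 340 higher in PB there alone, 332 had the same sign, with a median of -0.80 in the Piezo1 experiment, and 33 differed. For most of these genes the test thus did not find a difference between the experiments, which does not show that they were equal. A further 25 and 141 DEGs of the Piezo1 experiment were not tested in the tissue comparison, because too few of its libraries reached 1 FPKM, and 9 and 66 of these differed by the test.

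The difference between the experiments itself was tested with limma's interaction of experiment and tissue over all 10 libraries. An adjusted p below 0.05 and an absolute difference above 1 were reached by 117 of 7143 genes (1.64%) that were further on the side of lung in the Piezo1 experiment and by 239 (3.35%) that were further on the side of PB. Of the 356 genes, 277 were tested in the tissue comparison, of which 196 had the same sign in both experiments and 81 opposite signs. Under a pseudocount of 0.1, rescaling, edgeR with TMM and DESeq2, 84 of the 117 and 158 of the 239 were called every time. The 117 genes had a lower level in the Piezo1 experiment, by a median of -0.45 log2 units of mean FPKM + 1, beside 0.02 for all genes tested, and the 239 had a higher level, by 0.31. The experiments also differed in depth, whose part in these differences was not tested. Without PB replicate 3 of the tissue comparison 124 and 230 genes were called.

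Among genes further on the side of lung in the Piezo1 experiment, Plk3, a stress-responsive polo-like kinase, had 738 and 737 FPKM in lung and 36.8 and 36.1 in PB and in the tissue comparison 899, 918 and 925 FPKM in lung and 185, 192 and 150.1 in PB. Its log2 difference was 4.30 against 2.38, a difference of 1.92 ± 0.12 (limma adjusted p = 8.53e-06), so that Plk3 was higher in lung in both experiments and by more in the Piezo1 experiment. Tex12, a gene of the synaptonemal complex, had 4.90 and 5.50 FPKM in lung and 0.246 and 0.432 in PB and stayed at 0, 0.0944 and 0 FPKM in lung and 0.0915, 0 and 0 in PB of the tissue comparison. Lactb2, a mitochondrial ribonuclease, had 6.70 and 8.68 FPKM in lung and 0.115 and 0 in PB, with 3 reads in the PB libraries and a ratio of 143.5 in RPM (exact 95% counting interval 48.8 to 699), and was higher in lung in the tissue comparison too. The forkhead gene Foxd4 was higher in PB in both experiments as deposited, at -1.19 against -3.002, with 23.2 and 26.4 FPKM in lung and 56.1 and 59.3 in PB. The phosphatase gene Dusp7 had 0.293 and 0.290 FPKM in lung and 1.44 and 1.14 in PB against 0.944, 1.20 and 0.811 and 12.3, 13.01 and 12.5 in the tissue comparison, where its log2 difference was -2.78 in place of -0.82. Both tissues thus held little Dusp7 in the Piezo1 experiment. The inhibitor gene Tnfaip3, the immediate early genes Nr4a1 and Dusp5 and the lipid droplet gene Hilpda were among the 117. Each was higher in lung in both experiments and by 1.28 to 1.32 log2 units more in the Piezo1 experiment on log2(FPKM + 1). For Hilpda, with PB means of 0.966 FPKM and, in the tissue comparison, 0.446 FPKM, the size of this gap depends on the 1 FPKM added. The kinase gene Pim2 had 4.51 and 3.49 FPKM in lung and 0.223 and 0.359 in PB against 2.03, 1.80 and 1.96 and 2.41, 2.69 and 1.24, and was higher in lung in the Piezo1 experiment alone, at 1.95 against -0.05.

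Nr4a3 differed most in the other direction. It had 9.95 and 9.58 FPKM in lung and 0.228 and 0.116 in PB in the Piezo1 experiment and 88.5, 92.6 and 87.1 FPKM in lung and 0.277, 0.249 and 0.102 in PB of the tissue comparison, a log2 difference of 3.20 against 6.23 and a difference between experiments of -3.03 ± 0.12 (limma adjusted p = 5.05e-07). Dot1l, the histone H3 lysine methyltransferase, had 3.31 and 2.84 FPKM in lung and 0.157 and 0.202 in PB against 40.5, 41.7 and 41.6 and 1.36, 1.21 and 1.10, at 1.79 against 4.25. Slc7a11, which imports cystine, had 60.1 and 61.4 FPKM in lung and 29.0 and 29.8 in PB against 137, 139 and 142 and 14.4, 13.8 and 14.1, at 1.02 against 3.22. These 3 genes were higher in lung in both experiments and by less in the Piezo1 experiment. Nr4a3 and Dot1l had at most 1.36 FPKM in any PB library, and Dot1l was low in lung of the Piezo1 experiment too. Such levels are compressed by a pseudocount of 1 FPKM, so the sizes of these gaps depend on it. Pla1a, a phospholipase, and Lars2, a mitochondrial tRNA synthetase, were higher in lung in the tissue comparison at 1.77 and 1.71 and were not called in the Piezo1 experiment, at -0.61 and -0.48, or 0.03 and 0.16 after rescaling. Ccl3 belonged to the same group, with a difference of -1.67 ± 0.20 (limma adjusted p = 0.000191), its PB level being 85.4 and 101 FPKM against 50.3, 52.8 and 35.7 in the tissue comparison. Jun differed by -1.74 and Cxcl3 by -1.03, the latter not after rescaling.

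**Figure D5:**
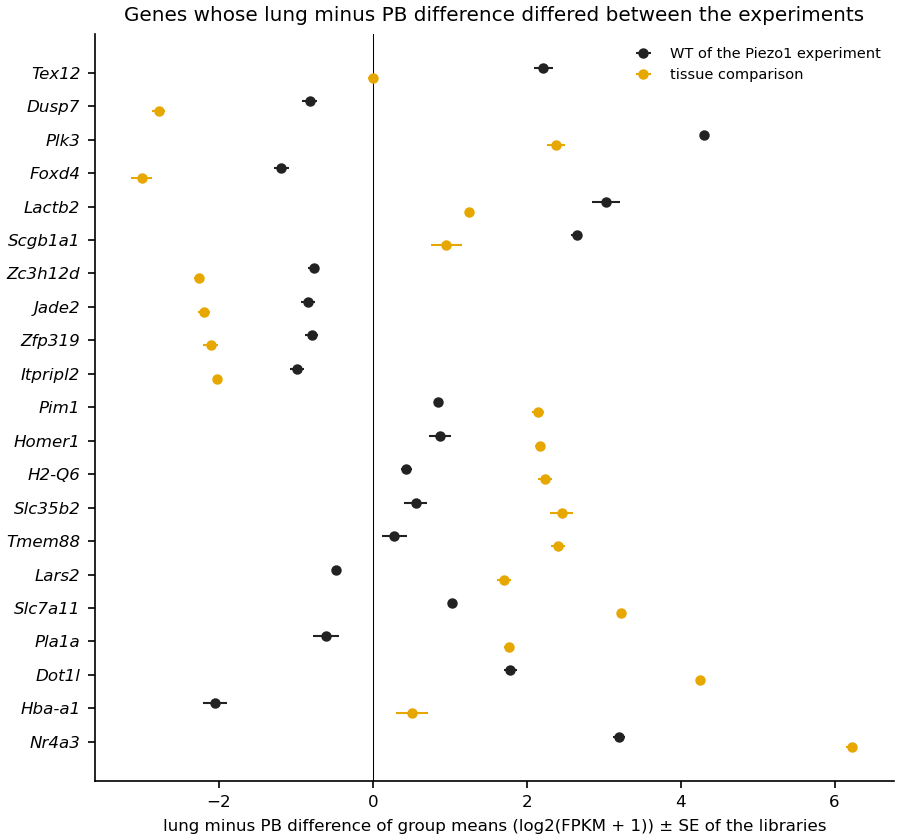
Log2 difference of lung minus PB, difference of group means with the SE of the libraries, in the WT libraries of the Piezo1 experiment (black, n = 2 and 2) and the tissue comparison (orange, n = 3 and 3), for 21 genes named for a difference between the experiments or for a call in the tissue comparison alone. The black point lies right of the orange point in the upper 10 genes and left of it in the lower 11, with Nr4a3 at 3.20 against 6.23.

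Of the genes called higher in lung in the tissue comparison alone and reaching a mean of 5 FPKM there, the largest were Slc35b2, Tmem88, H2-Q6, Homer1 and Pim1, with log2 differences of 2.46, 2.41, 2.24, 2.17 and 2.14 there and of 0.56, 0.28, 0.43, 0.87 and 0.84 in the Piezo1 experiment. H2-Q6 belongs to the Qa family of MHC class I genes, whose reads may be shared. The kinase gene Pim1 had 129 and 132 FPKM in lung and 72.1 and 72.5 in PB against 1762, 1807 and 1814 and 417, 435 and 366, and after rescaling 4 of the 5, all but Tmem88, were called higher in lung in the Piezo1 experiment too. On the side of PB, Dusp7, Zc3h12d, Jade2, Zfp319 and Itpripl2 were called in the tissue comparison alone, where their log2 differences ran from -2.78 to -2.02. In the Piezo1 experiment these 5 genes had at most 1.72 FPKM in any library, and PB lay above lung at each of them. Such low levels are compressed by a pseudocount of 1 FPKM, and edgeR with TMM on the recovered reads called all 5 higher in PB. The 340 genes called higher in PB in the tissue comparison alone differed in level by a median of -0.63 log2 units between the Piezo1 experiment and the tissue comparison.

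Some markers of other cell types differed between lung and PB. Of the 10 dendritic cell markers, the 4 tested were MHC class II genes and their invariant chain and were all higher in lung in both experiments. With the others they summed to 283 and 294 FPKM in lung and 13.6 and 14.3 in PB (173 to 186 and 11.9 to 16.6 in the tissue comparison). In both experiments H2-Aa, H2-Ab1 and H2-Eb1 reached 1 FPKM in lung alone, so that the filter fixed their direction. Cd74 reached 1 FPKM in every library and was higher in lung by 3.00, against 2.49 in the tissue comparison. Of all genes tested in the Piezo1 experiment, 7.5% were higher in lung. H2-Aa had 70.4 and 71.7 FPKM in lung and 0.0710 and 0.249 in PB, H2-Ab1 61.9 and 65.0 FPKM in lung and 0.318 and 0.0558 in PB, and the invariant chain Cd74 109 and 113 FPKM in lung and 12.5 and 13.4 in PB. The lineage markers Flt3, Zbtb46, Siglech, Xcr1, Clec9a and Cd209a stayed at or under 0.446 FPKM in the 4 libraries. Globin and other erythroid genes summed to 5.11 and 5.12 FPKM in lung and 24.9 and 26.7 in PB, with 3 of the 7 genes found in the tables higher in PB, against at most 1.25 in the tissue comparison. Hba-a1, whose reads may be shared with Hba-a2, had 1.44 and 1.90 FPKM in lung and 9.36 and 10.7 in PB. Scgb1a1, the secretory protein of club cells, had 5.595 and 4.97 FPKM in lung and no reads in PB, at least 23.2-fold higher in lung, against 0.499, 0.996 and 1.42 FPKM in lung of the tissue comparison, while the airway marker Cyp2f2 was at 0 in the 4 libraries. Of the alveolar epithelium list, summing to 118 and 126 FPKM in lung and 87.5 and 89.6 in PB, Hopx was higher in lung at 3.01 and 4.17 FPKM and Sftpc reached 0.835, while Napsa had 121 and 113 FPKM in lung and 86.2 and 84.6 in PB. The part of cells other than neutrophils in these differences was not tested.

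Of the Y-linked genes, Ddx3y, Eif2s3y and Uty were tested. Ddx3y had 42.9 and 41.5 FPKM in lung and 10.98 and 10.9 in PB, a log2 difference of 1.85 (limma adjusted p = 6.72e-08) against 2.34 in the tissue comparison. Eif2s3y had 55.6 and 58.1 FPKM in lung and 52.4 and 55.0 in PB and Uty 1.23 and 1.28 FPKM in lung and 1.03 and 0.971 in PB, and neither was called, so that 1 of the 3 was called as deposited, after rescaling and in the tissue comparison.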

How the data were processed

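Neutrophils from lung and peripheral blood (PB) of WT mice were profiled by bulk RNA-Seq in the Piezo1 experiment (2 and 2 libraries) and in the tissue comparison (3 and 3). Per the labels and the study's methods, polyA RNA was sequenced as paired reads, trimmed with fastp, aligned to mm10 with HISAT2 and counted with HTSeq, with tool versions and the strand setting of the counting not given in the sources used here, so overlapping and antisense genes are uncertain. The authors deposited FPKM per gene in 1 table for each tissue of the Piezo1 experiment and in 1 table for the tissue comparison, and the deposited signal columns hold group means of reads scaled by the size factors of DESeq2. Together these gave whole reads (100% of values from above 0 to 1000 reads within 0.05 of a whole number), from which depth, counting intervals and the count tests were taken. For 27 genes listed under a date in place of a symbol, the symbol was taken from RefSeq by NCBI gene number. Deposited columns of fold changes, p-values and q-values hold the authors' own comparisons and were not used. The Piezo1-cKO libraries, the bone marrow libraries and the other experiments of the series entered no main test. The first 2 of these entered an alternative fit that held all sorted neutrophil libraries of an experiment, and values among the other observations.

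Genes with at least 1 FPKM in 2 of 4 libraries (3 of 6 in the tissue comparison) were tested with limma 3.58.1 (R 4.3.3, trend and robust) on log2(FPKM + 1), which understates changes of low genes, with Benjamini-Hochberg adjustment over all genes tested. DEGs passed 0.05 in adjusted p and differed by more than 1 log2 unit. The difference between experiments was limma's interaction over 10 libraries. Every such step was tested on simulated data. edgeR 4.0.16 and DESeq2 1.42.0 on recovered reads, rescaled FPKM, other pseudocounts and filters, left-out libraries and a replicate block were alternatives. Gene coordinates are those of the deposited tables, and promoters those of RefSeq for GRCm38.p6.

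The members, the 26 gene lists and the 16 marker lists were chosen with earlier results of these data known. Named genes were, among genes with a group mean of at least 5 FPKM, the 12 largest DEGs in each direction whose lung and PB libraries did not overlap. At the same level, the 6 largest differences between experiments and the 5 largest DEGs of the tissue comparison alone were named in each direction. Also named were the 4 largest differences of each list and 12 genes of the study's question. Clone and predicted genes were not named, and other list and marker genes named were chosen after their values were seen. Numbers were handled with Python 3.11.15, pandas 2.3.3 and numpy 2.4.6, and figures drawn with matplotlib 3.10.9. Some genes of the lists are counted but not reported by name here.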

Additional observations from a re-analysis of the deposited data

Results flagged for a closer look

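The difference between lung and PB itself differed between the Piezo1 experiment and the tissue comparison, by limma's interaction test with Benjamini-Hochberg adjustment, at 117 genes that were further on the side of lung in the Piezo1 experiment and at 239 that were further on the side of PB. Of the genes named, 44 were among them, 19 in the first direction and 25 in the second, and each value given here is the log2 difference of lung minus PB in the Piezo1 experiment less that in the tissue comparison.

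Among genes of the first kind, Hilpda was at 1.29, Snai1 at 1.15, Vps37b at 1.12 and the MHC class II gene H2-Ab1 at 1.05, all higher in lung in both experiments. For H2-Ab1 the mean FPKM were 63.4 in lung and 0.187 in PB, against 26.7 and 0.0466 in the tissue comparison. Its 1.05 thus does not stand for a larger ratio of lung to PB. The regulators and feedback genes Plk3, Pim2, Nr4a1, Tnfaip3 and Dusp5 were at 1.92, 2.00, 1.32, 1.31 and 1.28, and the co-chaperone Dnaja1 at 1.09. Tex12 was at 2.21, Foxd4 at 1.81, Lactb2 at 1.78 and the club cell gene Scgb1a1 at 1.70. Dusp7, Zc3h12d, Jade2, Zfp319 and Itpripl2, which were low in the Piezo1 experiment, were at 1.96, 1.5, 1.36, 1.32 and 1.03. For Itpripl2 the mean FPKM were 0.306 in lung and 1.59 in PB, against 6.85 and 30.8 in the tissue comparison. Its 1.03 thus does not stand for a smaller ratio of PB to lung.

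Among genes of the second kind, Nr4a3 was at -3.03, Dot1l at -2.46, Slc7a11 at -2.19, Ccl3 at -1.67, Ddit4 at -1.11, Cxcl3 at -1.03, the AP-1 subunit Fosl1 at -1.02 and Cd80 at -1.01. After rescaling Cxcl3, Fosl1, Cd80 and Itpripl2 were no longer called, and the other 40 were. Pla1a, Lars2, Tmem88, Slc35b2, H2-Q6, Homer1 and Pim1, called higher in lung in the tissue comparison alone, were at -2.38, -2.18, -2.13, -1.90, -1.81, -1.30 and -1.30. Genes higher in PB by more in the Piezo1 experiment were Jun at -1.74, Rsrp1 at -1.41, Bet1l at -1.28, Cd200r1 at -1.18 and Ttc30a1 at -1.07. The globin gene Hba-a1 was at -2.56, the respiratory chain gene Ndufa12 at -2.05, the granule genes Chil3 and Camp at -1.29 and -1.16, and Ptgs1 at -1.23.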

How the results depend on the processing

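The main counts were 536 genes on the side of lung and 1893 on that of PB in the Piezo1 experiment, 434 and 1014 shared with the tissue comparison, and 356 that differed between experiments. Leaving out each library in turn gave 531 to 545, 1898 to 1926, 430 to 435, 1000 to 1034 and 353 to 387, in this order, where each fit of the Piezo1 experiment has 1 library in a tissue and takes the spread from the other, so that these ranges say little of stability. Rescaled FPKM gave 940, 632, 724 and 273 for the first 4. edgeR with TMM gave 1138, 1187, 809, 540 and 799, edgeR with RLE 1163, 1151, 819, 526 and 771, and DESeq2 1156, 1125, 819, 519 and 771. With no fold threshold the counts were 1180, 5180, 894, 4282 and 2809. A mean of at least 5 FPKM left 1060 and 604 genes on the side of PB and 121 that differed, and a pseudocount of 0.1 gave 1538 shared on the side of PB and 774 that differed. No filter, all libraries in the fit and the remaining values of these settings stayed within 1.5 times the main counts. A replicate block gave 536, 1893, 434, 1014 and 354. The shared replicate numbers did not pair the libraries, as deviations of same-numbered lung and PB libraries correlated by 0.04 in the Piezo1 experiment and by -0.06, 0.04 and -0.09 in the tissue comparison.

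Of 141 named genes tested, 113 were called and none of these changed direction under the alternatives run. Among the 28 not called, 7 turned to the side of lung under rescaling, TMM, RLE and DESeq2. In that order Pla1a was at 0.0318, 0.0146, 0.0398 and 0.036, Lars2 at 0.16, 0.16, 0.19 and 0.19, Ly6g at 0.0383, 0.0111, 0.0368 and 0.038, and Ccl6 at 0.28, 0.26, 0.28 and 0.28. Rac2 was at 0.0467, 0.0216, 0.0468 and 0.0468, Tmem63a at 0.31, 0.34, 0.37 and 0.36, and Trpv2 at 0.44, 0.42, 0.45 and 0.45. With 2 libraries a tissue, the depth and the pseudocount of 1 FPKM limit what can be said of genes under a few FPKM.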

Other observations

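In the Piezo1 experiment, over WT and Piezo1-cKO libraries together, 3163 genes had a value above 0 that were at 0 in all 9 libraries of the tissue comparison, the highest of them at 4.22 FPKM. A further 837 genes were above 0 in the tissue comparison and at 0 in all 8 libraries of the Piezo1 experiment. Of the DEGs of the Piezo1 experiment, 75 had a symbol that names only a clone or a predicted gene.

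The summed globin and erythroid level of PB was 24.9 and 26.7 FPKM in the WT libraries of the Piezo1 experiment and 1011 and 1136 FPKM in the Piezo1-cKO libraries of that experiment, against 0 to 0.481 in PB of the tissue comparison. Hopx, a marker of alveolar epithelium that was a DEG in the Piezo1 experiment, was not called in the tissue comparison. Ager, of the same list, was lower in lung than in PB in both experiments, at 0.0933 and 0.154 FPKM against 1.16 and 0.740 in the Piezo1 experiment.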
